A study of Homo sapiens with 11 samples.

Results

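Transcripts of 10 cyclic nucleotide phosphodiesterase genes were followed by RNA-seq in 11 libraries from 2 human cancer lines. The genes are PDE4A, PDE4B, PDE4D, PDE7A, PDE7B, PDE8A, PDE8B, PDE1C, PDE3A and PDE10A, which is 10 of the 23228 genes in the deposited count tables. The set was picked because PDE4B and PDE7B were among the genes with the lowest values after methyl methanesulfonate (MMS), a chemical that methylates DNA bases. The MMS values of all 10 genes are therefore given as a description, with no test. All 10 genes had enough reads to enter the fit over 15888 genes.

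The groups were U2OS cells (an osteosarcoma line) with 8 h of doxorubicin at 1 µM, etoposide at 20 µM, paclitaxel at 0.2 µM or MMS at 40 µg/mL, and U2OS cells with the vehicle DMSO. MDA-MB231 cells (a basal-type breast cancer line) received the same 4 drugs at the same doses for 8 h, or DMSO. Each line and drug had 1 library. U2OS had 1 DMSO library. MDA-MB231 had 2 DMSO libraries, of which replicate 2 shares the title form of the MDA-MB231 MMS library and replicate 1 that of the other 3 MDA-MB231 drug libraries. Replicate 2 carries a DMSO treatment label, while another of its labels calls it untreated. Doxorubicin and etoposide poison topoisomerase II, and paclitaxel stabilises microtubules. Separate cultures are not stated by the labels, so p-values measure the spread between these libraries only. With 1 library for each drug in each line, that spread is how far the lines differ in their drug responses. No repeat of a drug within a line enters it. Both are established cancer lines grown in dishes. In bulk libraries such as these, fewer cells with a transcript and less of it per cell cannot be told apart.

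Phosphodiesterases hydrolyse the second messengers cAMP and cGMP and so end their signals. Cells make cAMP with adenylyl cyclases downstream of Gs-coupled receptors, and cAMP acts through protein kinase A, EPAC exchange factors and popeye-domain proteins. Protein kinase A phosphorylates CREB, which binds the cAMP response element in the promoters of its target genes. The PDE4, PDE7 and PDE8 families hydrolyse cAMP only, and PDE4 is the target of rolipram and related anti-inflammatory drugs. PDE1C is switched on by calcium and calmodulin and hydrolyses both nucleotides. PDE3A hydrolyses both and is inhibited by cGMP, and PDE10A, best known from striatal neurons, also hydrolyses both.

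The cAMP response element was searched in promoter windows of RefSeq (build GRCh38.p14), each running from 250 bases before to 50 bases after a transcript start. The tables held 36 windows for 9 of the 10 genes. The full element, TGACGTCA, reads the same on both strands. It stood in 2 of these 36 windows, the only PDE7B window and 1 of the 5 PDE4A windows, against 649 of all 35116 windows (1.85%). The shorter element TGACG, searched on both strands and contained in the full element, stood in 3 of the 36 windows, against 24.6% of all windows. None of the 6 PDE4B windows held either form. The promoter stretches with the full element are shown because PDE7B is one of the genes on which the set was picked, while PDE4A is the gene of the set with the smallest range of log2 ratios over the 8 drug libraries. PDE7B is printed at chr6:135851451-135851700 and PDE4A at chr19:10416673-10416778, both on the plus strand, 5′ to 3′, with the element in capitals. The element begins 155 bases before the start in PDE7B and 3 bases before it in PDE4A. A match is a description of these letters and no sign of factor binding.
PDE7B: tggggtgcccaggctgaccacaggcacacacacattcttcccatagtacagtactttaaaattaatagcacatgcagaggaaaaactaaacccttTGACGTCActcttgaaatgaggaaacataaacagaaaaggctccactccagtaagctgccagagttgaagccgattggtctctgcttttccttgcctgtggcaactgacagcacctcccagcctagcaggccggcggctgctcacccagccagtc
PDE4A: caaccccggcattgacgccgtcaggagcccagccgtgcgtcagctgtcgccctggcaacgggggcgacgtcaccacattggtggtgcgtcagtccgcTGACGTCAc

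The libraries held 16774156 to 31588683 reads counted to genes. Levels are given as CPM, the read count scaled to a common library size with TMM factors. The line labels were checked against markers chosen for each line. ALPL and TWIST1, both osteoblast or mesenchymal genes, reached 1.81 to 12.9 CPM and 1.74 to 2.87 CPM in U2OS, and at most 0.281 and 0.0787 CPM in MDA-MB231. KRT19, an epithelial keratin, was at most 0.344 CPM in U2OS and 65.4 to 182 CPM in MDA-MB231. A pair of markers went against the labels with no overlap: CDH11, chosen for U2OS, was at 2.50 to 26.2 CPM in U2OS and 98.1 to 370.4 CPM in MDA-MB231, and CD24, chosen for MDA-MB231, was at 34.8 to 80.4 CPM in U2OS and 16.3 to 27.7 CPM in MDA-MB231. The U2OS markers summed to 20.1 to 70.1 CPM in U2OS and 124.1 to 411.2 CPM in MDA-MB231, 5 of 6 passing 1 CPM in every U2OS library and 3 of 6 in every MDA-MB231 library, and COL1A2 stayed at or near 0 in both. Of the MDA-MB231 markers, 7 of 8 passed 1 CPM in every U2OS library and 8 of 8 in every MDA-MB231 library. Their sums did not part the lines, at 1304 to 5546 CPM in U2OS and 1698 to 5397 CPM in MDA-MB231. RUNX2, MSX2, EGFR, KRT7, KRT18, KRT81, CD44 and VIM each overlapped between the lines. Only ALPL, TWIST1 and KRT19 parted them as labelled. Blood and immune markers summed to 0.41 to 4.93 CPM in U2OS and 1.69 to 14.6 CPM in MDA-MB231, with CD14 at up to 14.1 CPM in MDA-MB231, and HBB was at 0 in all 11 libraries.

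With DMSO, PDE8A was the most abundant of the 10 per exonic kb and PDE3A parted the lines. Levels between genes are given as CPM per kb of exons (GENCODE 29), a scale that depends on which isoforms the cells use. In U2OS the order was PDE8A (14.4), PDE3A (12.4), PDE7A (6.14), PDE10A (5.30), PDE4A (4.15), PDE4D (3.98), PDE7B (1.38), PDE8B (1.30), PDE4B (0.501) and PDE1C (0.46). Counting intervals overlapped for the neighbours PDE4A and PDE4D, PDE7B and PDE8B, and PDE4B and PDE1C. In MDA-MB231 the 2 DMSO libraries gave PDE8A at 21.1 and 18.2, PDE4A at 14.9 and 11.9, PDE4D at 4.57 and 4.89, and PDE10A at 4.04 and 3.52. Below these lay PDE7B at 3.06 and 2.83, PDE7A at 2.86 and 3.02, PDE1C at 1.40 and 2.12, PDE4B at 1.19 and 1.39, PDE8B at 0.26 and 0.404, and PDE3A at 0.0416 and 0.0578. PDE7A and PDE7B changed places between those 2 libraries, and their intervals overlapped in both. The intervals of PDE1C and PDE4B overlapped in replicate 1 only, and those of PDE10A and PDE7A in replicate 2 only.

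The level difference between the lines, read from the fit over all libraries, was called for 8 of the 10 genes at an adjusted p under 0.05 (edgeR's quasi-likelihood test, Benjamini-Hochberg over 15888 genes). Over all genes 61.0% were called, 33.1% higher and 27.9% lower in U2OS. Higher in U2OS were PDE3A (log2 difference U2OS minus MDA-MB231 7.44 ± 0.37 SE, adjusted p = 7.59e-07), PDE8B (1.92 ± 0.22), PDE7A (0.95 ± 0.18) and PDE10A (0.40 ± 0.15, adjusted p = 0.0382). Lower in U2OS were PDE1C (-1.80 ± 0.26), PDE4A (-1.62 ± 0.18), PDE4B (-1.07 ± 0.31) and PDE7B (-0.93 ± 0.25). PDE4D (-0.38 ± 0.26, adjusted p = 0.232) and PDE8A (0.15 ± 0.26, adjusted p = 0.638) were not called. PDE3A thus ranged from 16.0 to 93.5 CPM over the 5 U2OS libraries and rested on 3 to 10 reads in each of the 6 MDA-MB231 libraries. Only 5 of the 8 calls were left without U2OS DMSO or without MDA-MB231 DMSO replicate 2; PDE4B, PDE7B and PDE10A were the calls lost in both cases. The PDE10A call was lost in 10 of 19 alternatives, and PDE4D was called in 3 of 19, each without a doxorubicin library.

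**Figure D1:**
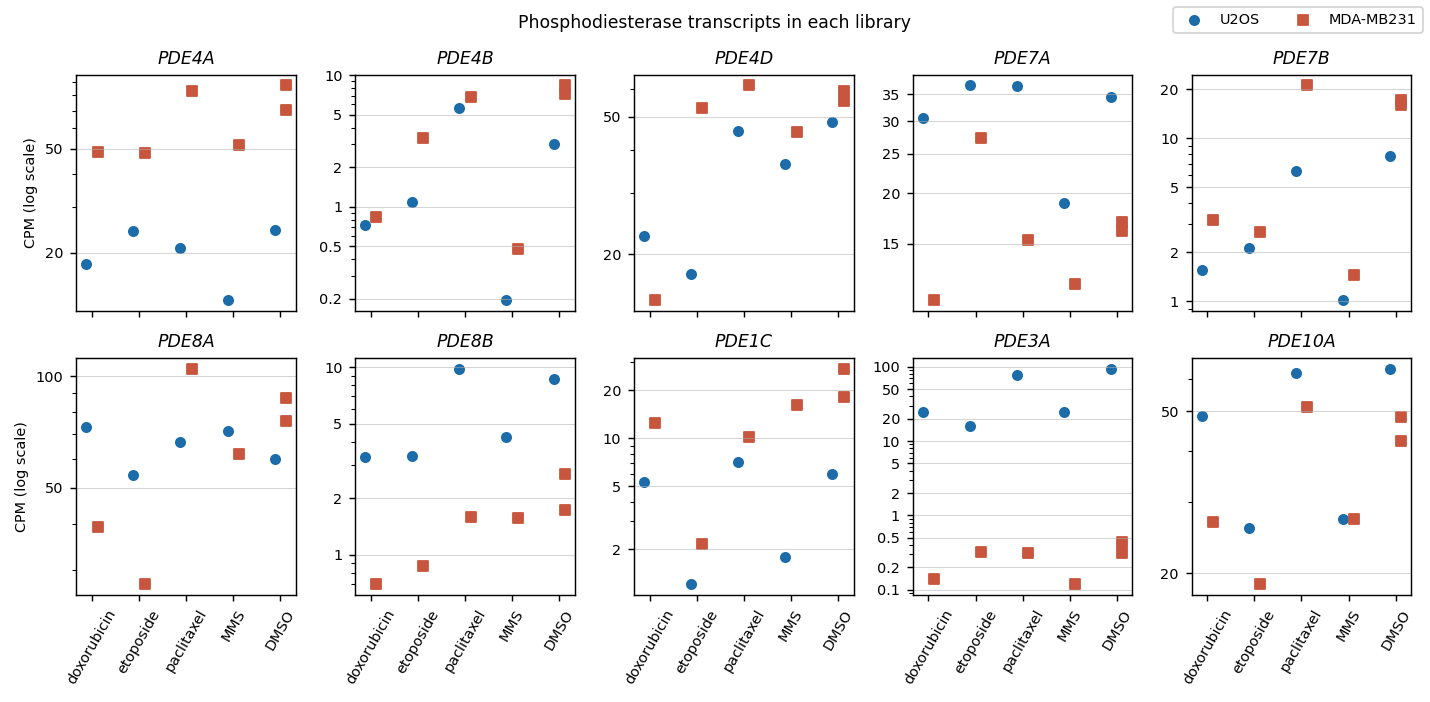
CPM (counts per library size after TMM scaling, log axis) of each phosphodiesterase gene in each library; circles are U2OS and squares MDA-MB231, and each point is 1 library. PDE4B and PDE7B lie lowest with MMS in both lines, and PDE3A is below 0.5 CPM in every MDA-MB231 library.

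The drugs were first compared over both lines. With doxorubicin 5 of the 10 genes were called lower and 0 higher, against 20.6% of all genes called lower and 21.9% called higher. With etoposide 5 were called lower and 0 higher, against 9.23% lower and 7.97% higher. With paclitaxel 0 of the 10 genes and 0.0% of all genes were called, and 110 genes but none of the 10 had an unadjusted p under 0.05. DESeq2 and limma-voom called 0 genes with paclitaxel as well. The median log2 fold change of the 10 genes was -0.94 with doxorubicin, -1.21 with etoposide and 0.04 with paclitaxel, beside 0.07, 0.02 and 0.01 over all genes. The comparisons share control libraries: every U2OS drug library, the MMS one included, was read against the same U2OS DMSO library. The MDA-MB231 doxorubicin, etoposide and paclitaxel libraries share DMSO replicate 1, which the MMS comparison does not use. PDE4B and PDE7B were picked as low with MMS partly against that U2OS DMSO library, and the MMS libraries enter the same fit. Their values with the other drugs are therefore not independent of the picking. The same holds for the counts above, where both are called lower with doxorubicin and PDE7B with etoposide.

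**Figure D2:**
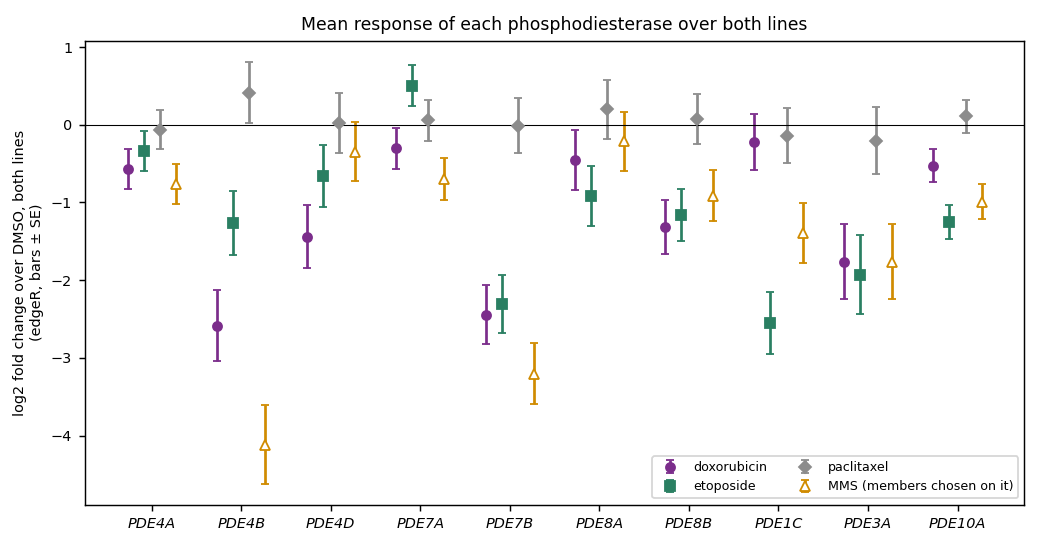
Log2 fold change over DMSO of each gene with each drug over both lines, from edgeR; bars are ± 1 SE and the open triangles mark MMS, on which the set was picked. The paclitaxel points lie between -0.21 and 0.41, and most other points lie below 0.

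PDE4B, the PDE4 gene most studied in immune cells, was low with doxorubicin in both lines. It stood at 0.733 CPM with doxorubicin against 3.02 CPM with DMSO in U2OS (15 and 59 reads). In MDA-MB231 it stood at 0.842 CPM with doxorubicin against 7.20 CPM in DMSO replicate 1 (18 and 183 reads). Both doxorubicin libraries lay below all 3 DMSO libraries. The fitted log2 fold change was -2.58 ± 0.46 (adjusted p = 0.00253), and the call was kept in all 19 alternatives, with adjusted p up to 0.0489. With etoposide PDE4B stood at 1.08 CPM in U2OS and 3.32 CPM in MDA-MB231, again below the DMSO library of the same line. That difference, -1.26 ± 0.41, missed the threshold (adjusted p = 0.0663). It was called in 4 of 20 alternatives, DESeq2 (adjusted p = 0.0479) and limma-voom (0.0429) among them. With paclitaxel it stood at 5.59 CPM in U2OS, above DMSO, and at 6.87 CPM in MDA-MB231, slightly below DMSO replicate 1, and was not called (0.41 ± 0.40).

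PDE7B, a cAMP-specific enzyme of high affinity, was low with both topoisomerase II poisons. In U2OS it stood at 1.56 CPM with doxorubicin and 2.14 CPM with etoposide, against 7.79 CPM with DMSO. In MDA-MB231 it stood at 3.13 CPM with doxorubicin and 2.67 CPM with etoposide, against 17.2 CPM in DMSO replicate 1 and 15.9 CPM in replicate 2. The 4 libraries of these drugs held 15.5% to 27.4% of the level of the DMSO library they were paired with, and none overlapped with any DMSO library of its line. Fitted log2 fold changes were -2.44 ± 0.38 with doxorubicin (adjusted p = 0.00139) and -2.30 ± 0.37 with etoposide (adjusted p = 0.00865). The etoposide call was lost without MDA-MB231 DMSO replicate 1 (adjusted p = 0.0736) and without the MDA-MB231 etoposide library (0.0678). With no block for line and title form both calls were lost (0.0539 with doxorubicin and 0.175 with etoposide). With paclitaxel PDE7B was 6.28 CPM in U2OS and 21.2 CPM in MDA-MB231, on either side of DMSO.

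PDE4D, whose many long and short isoforms are anchored at different places in the cell, fell with doxorubicin. It stood at 22.6 CPM with doxorubicin against 48.4 CPM with DMSO in U2OS, and at 14.7 CPM against 55.5 CPM in MDA-MB231. The fitted log2 fold change was -1.44 ± 0.40 (adjusted p = 0.019), lost without the U2OS DMSO library (0.0705) and without the MDA-MB231 doxorubicin library (0.098). With etoposide PDE4D was at 17.6 CPM with etoposide in U2OS, against 48.4 CPM with DMSO, and at 52.9 CPM in MDA-MB231, against 55.5 CPM, and was not called over both lines (-0.66 ± 0.40, adjusted p = 0.277). PART1, a gene on the opposite strand, overlaps PDE4D, and the strand setting of the counting is not given in the sources used here.

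PDE4A, which is found in many tissues, varied least of the PDE4 genes. It stood at 18.1 CPM with doxorubicin and 24.3 CPM with etoposide in U2OS, against 24.4 CPM with DMSO. In MDA-MB231 it stood at 48.6 CPM with doxorubicin and 48.0 CPM with etoposide, below both DMSO libraries at 87.5 and 70.1 CPM. Neither drug was called over both lines (-0.57 ± 0.26, adjusted p = 0.106, and -0.34 ± 0.26, adjusted p = 0.395). The gene overlaps CDC37 on the opposite strand.

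PDE7A, the close relative of PDE7B found in immune cells, was not called with either poison. With doxorubicin PDE7A was 30.6 CPM against 34.5 CPM with DMSO in U2OS and 10.9 CPM against 16.1 CPM in MDA-MB231. With etoposide it was 36.8 CPM in U2OS and 27.4 CPM in MDA-MB231, and the MDA-MB231 value lay above both DMSO libraries of that line. It was the only gene of the 10 with a fitted etoposide value above 0 (0.50 ± 0.26, adjusted p = 0.213). It overlaps MTFR1 on the opposite strand.

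PDE8B, a high-affinity cAMP enzyme known from the adrenal and thyroid glands, fell with both poisons. In U2OS it stood at 3.32 CPM with doxorubicin and 3.35 CPM with etoposide, against 8.66 CPM with DMSO. In MDA-MB231 it stood at 0.702 and 0.869 CPM (15 and 27 reads), against 1.73 and 2.69 CPM in the DMSO libraries. The fitted log2 fold changes were -1.31 ± 0.35 with doxorubicin (adjusted p = 0.0147) and -1.16 ± 0.34 with etoposide (adjusted p = 0.0451). Of 20 alternatives 12 lost the etoposide call, the highest adjusted p being 0.803. The doxorubicin call was lost without U2OS DMSO (0.0745), U2OS doxorubicin (0.0918) or MDA-MB231 DMSO replicate 1 (0.0678). PDE8B overlaps WDR41 on the opposite strand.

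PDE8A, the abundant member of that family, lay at least 2-fold below DMSO replicate 1 in MDA-MB231 with doxorubicin and etoposide, and not 2-fold below DMSO in U2OS. That difference between the lines was not called for either drug, and set against DMSO replicate 2 the etoposide value alone was 2-fold lower. In MDA-MB231 it stood at 39.2 CPM with doxorubicin and 27.6 CPM with etoposide, against 87.5 and 75.8 CPM with DMSO. In U2OS it stood at 73.0 CPM with doxorubicin and 54.3 CPM with etoposide, on either side of the 59.9 CPM with DMSO. Neither drug was called over both lines (-0.46 ± 0.38, adjusted p = 0.364, and -0.91 ± 0.39, adjusted p = 0.134).

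PDE1C separated the topoisomerase II poisons. With etoposide it stood at 1.22 CPM in U2OS, against 5.94 CPM with DMSO, and at 2.16 CPM in MDA-MB231, against 18.1 and 27.4 CPM in the DMSO libraries. With doxorubicin it stood at 5.32 CPM in U2OS and 12.4 CPM in MDA-MB231. Both etoposide libraries were lower than every other library of their line. The etoposide log2 fold change was -2.55 ± 0.40 (adjusted p = 0.00781), the lowest of the 10 genes with that drug, and the doxorubicin one was -0.22 ± 0.36 (adjusted p = 0.644). The etoposide call was lost without MDA-MB231 DMSO replicate 1 (0.0736) or the MDA-MB231 etoposide library (0.0737). PDE1C also had the largest log2 ratio of CPM + 0.5 of the 10 genes between the 2 MDA-MB231 DMSO libraries, 0.58 for replicate 2 over replicate 1. With nothing added to the CPM, PDE8B differed slightly more, at 155.3% of replicate 1 beside 151.3% for PDE1C.

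PDE3A, a cGMP-inhibited enzyme of heart muscle and platelets, could be read in U2OS only. There it stood at 24.2 CPM with doxorubicin and 16.0 CPM with etoposide, against 93.5 CPM with DMSO and 78.4 CPM with paclitaxel. The paired ratio in MDA-MB231 rested on 3 reads with doxorubicin against 8 with DMSO, and its 95% counting interval ran from 0.0762 to 1.86 of the DMSO level. The fitted log2 fold changes, -1.76 ± 0.48 with doxorubicin (adjusted p = 0.0171) and -1.93 ± 0.51 with etoposide (adjusted p = 0.0336), therefore describe U2OS almost alone. Without U2OS DMSO they had adjusted p of 0.296 and 0.349, without U2OS doxorubicin the first had 0.25, and without U2OS etoposide the second had 0.856. The etoposide call was lost in 9 of 20 alternatives.

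PDE10A fell with etoposide. It stood at 25.8 CPM with etoposide against 63.7 CPM with DMSO in U2OS, and at 18.8 CPM against 48.5 and 42.3 CPM in MDA-MB231, with no overlap. The log2 fold change was -1.25 ± 0.22 (adjusted p = 0.0106), lost without MDA-MB231 DMSO replicate 1 (0.099), MDA-MB231 etoposide (0.076) or U2OS DMSO (0.0595). With doxorubicin it stood at 48.7 CPM in U2OS and 26.7 CPM in MDA-MB231, lower than DMSO in both lines, and missed the threshold (-0.53 ± 0.22, adjusted p = 0.0791). It was called in 5 of 19 alternatives, each with 1 or 2 libraries left out (adjusted p 0.033 to 0.0439).

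These counts rested on the DMSO libraries to different degrees. Of the 5 doxorubicin calls, 2 were left without U2OS DMSO, PDE4B and PDE7B. Of the 5 etoposide calls, 0 were left without MDA-MB231 DMSO replicate 1, 1 without MDA-MB231 etoposide and 2 without U2OS DMSO. Over all genes, the etoposide calls numbered 2734 in the fit of all libraries and 49, 290 and 381 in those same fits. Without U2OS etoposide, U2OS MMS, U2OS paclitaxel, MDA-MB231 DMSO replicate 2 or MDA-MB231 MMS, 3 of the 10 genes were called with etoposide in each case.

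**Figure D3:**
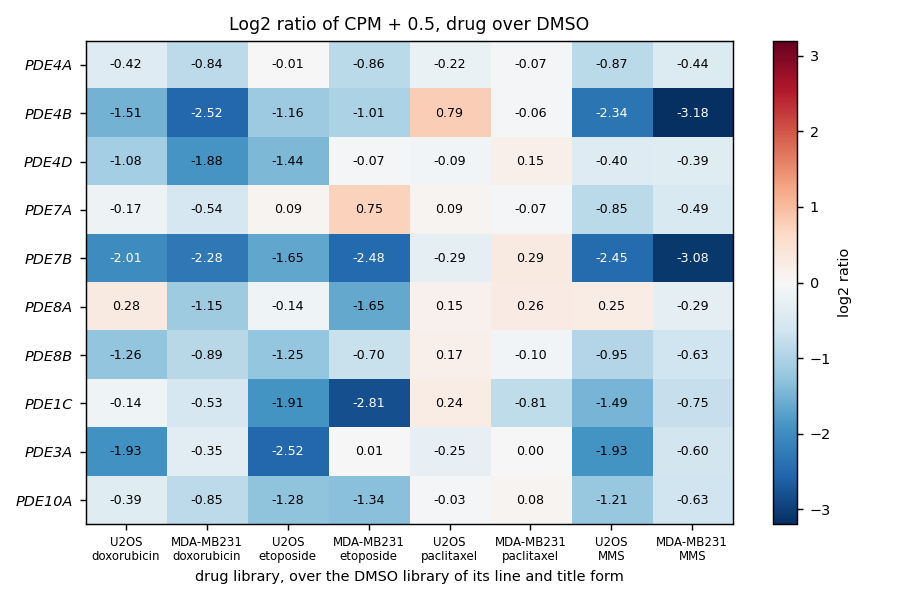
Log2 ratio of CPM + 0.5 for each gene in each drug library over the DMSO library of its line and title form; blue is lower and red higher than DMSO. The PDE7B row is at -1.65 or below in every doxorubicin, etoposide and MMS column, while the PDE7A row stays between -0.85 and 0.75.

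A direct test between the topoisomerase II poisons, the difference of their terms in the same fit, called 4 of the 10 genes. Over all genes 46.4% were called, 24.1% higher and 22.3% lower with doxorubicin than with etoposide. PDE1C (doxorubicin minus etoposide 2.33 ± 0.41, adjusted p = 0.00183) and PDE10A (0.72 ± 0.23, adjusted p = 0.0277) were higher with doxorubicin. PDE4B (-1.32 ± 0.46, adjusted p = 0.0428) and PDE7A (-0.81 ± 0.28, adjusted p = 0.0401) were lower with doxorubicin. The PDE1C call held in 18 of 19 alternatives and was lost with no block for line and title form (0.211), while the PDE4B call was lost in 11 of 19, the PDE7A call in 9 of 19 and the PDE10A call in 5 of 19 (adjusted p up to 0.214). PDE7B differed by -0.14 ± 0.38 and PDE8B by -0.15 ± 0.36, and neither was called. PDE4D was not called either, but was without U2OS doxorubicin (0.0289) or U2OS etoposide (0.0111).

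With MMS, the values that chose the set, PDE4B and PDE7B ranked 21 and 62 from the lowest fold change of 15888 genes. PDE4B stood at 0.195 CPM with MMS against 3.02 CPM with DMSO in U2OS (5 and 59 reads), and at 0.482 CPM against 8.38 CPM in MDA-MB231 (12 and 134 reads). PDE7B stood at 1.01 CPM with MMS against 7.79 CPM with DMSO in U2OS, and at 1.45 CPM against 15.9 CPM in MDA-MB231. The MMS libraries were the lowest of each line for both genes. Their fitted log2 fold changes were -4.11 and -3.201.

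The other 8 genes also had MMS values below 0, at -1.76 for PDE3A, -1.40 for PDE1C, -0.99 for PDE10A, -0.91 for PDE8B, -0.76 for PDE4A, -0.70 for PDE7A, -0.35 for PDE4D and -0.21 for PDE8A. PDE10A stood at 27.2 CPM with MMS in both lines, against 63.7 CPM with DMSO in U2OS and 42.3 CPM in MDA-MB231. PDE3A in U2OS stood at 24.3 CPM with MMS against 93.5 CPM with DMSO. PDE1C stood at 1.79 CPM with MMS against 5.94 CPM in U2OS, and at 16.1 CPM against 27.4 CPM in MDA-MB231. At the threshold used for all genes, 3 of the 10 (PDE4B, PDE7B and PDE10A) lay past it on the low side, beside 5.16% of all genes (10.4% in both directions), and nothing is read from that count because the set was picked on this contrast. Without the U2OS MMS library edgeR called 0 genes with MMS, and 1309 had an unadjusted p under 0.05. PDE8A was the only one with an MMS library above its DMSO library, at 71.2 CPM against 59.9 CPM in U2OS.

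Within single lines, where 1 library stands against 1 and no test was made, 2-fold differences with a larger CPM of at least 1 all pointed down. In U2OS, 5 of 10 genes were at least 2-fold lower with doxorubicin (17.3% of all genes), 7 with etoposide (7.63%), 0 with paclitaxel (0.0148%) and 5 with MMS (11.8%). In MDA-MB231, where PDE3A fell under the minimum, 4 of 9 were lower with doxorubicin (17.1%), 5 with etoposide (11.1%), 0 with paclitaxel (0.0473%) and 2 with MMS (3.77%). None of the 10 was 2-fold higher in any of the 8 comparisons. Of all genes, 16.7%, 7.26%, 0.17% and 8.21% were higher in U2OS with doxorubicin, etoposide, paclitaxel and MMS, and 11.6%, 9.23%, 0.709% and 2.81% in MDA-MB231. Between the 2 MDA-MB231 DMSO libraries, replicate 2 over replicate 1, the log2 ratios of the 10 genes ran from -0.32 to 0.58. None of the 10 was 2-fold apart, where 1.45% of all genes were higher and 1.56% lower in replicate 2.

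Scaling to total counts in place of TMM moved the median of all genes to -0.19 with doxorubicin and to 0.17 with etoposide in U2OS. The 2-fold counts in U2OS were 5 and 7 under that scaling too, and 4 in place of 5 with etoposide in MDA-MB231. With etoposide 7 of the 10 genes lay below DMSO in each line under that scaling, where TMM gave 9 in U2OS and 8 in MDA-MB231.

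The lines were compared for their response to each drug. The line difference of a drug was set against the line differences of the other drugs, and no repeat library entered the test. With edgeR none of the 10 genes passed an adjusted p under 0.05 for doxorubicin, etoposide or paclitaxel, and 0.0% of all genes passed for these or for MMS. At an unadjusted p under 0.05 stood 2430 of all genes with doxorubicin, 1324 with etoposide, 126 with paclitaxel and 818 with MMS. Among the 10 genes these were PDE4D with doxorubicin (response in U2OS minus that in MDA-MB231 1.33 ± 0.51, adjusted p = 0.288) and 4 with etoposide. The 4 were PDE3A (-2.32 ± 0.50, adjusted p = 0.377), PDE4D (-1.56 ± 0.42, adjusted p = 0.486), PDE4A (0.82 ± 0.34, adjusted p = 0.586) and PDE7A (-0.81 ± 0.34, adjusted p = 0.592). DESeq2 called 579 genes for doxorubicin, 202 for etoposide, 0 for paclitaxel and 94 for MMS, with PDE4D among the etoposide ones (adjusted p = 0.0437), and limma-voom called 0 for each drug. In simulated counts (15656 genes) with line differences set for doxorubicin alone, this test recovered 42% of 4-fold and 2% of 2-fold differences. It falsely called 13 genes with no line difference set. Most 2-fold differences between lines were thus missed in those counts. Line differences with the other drugs were not simulated, so the power of the real test is not known from this.

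**Figure D4:**
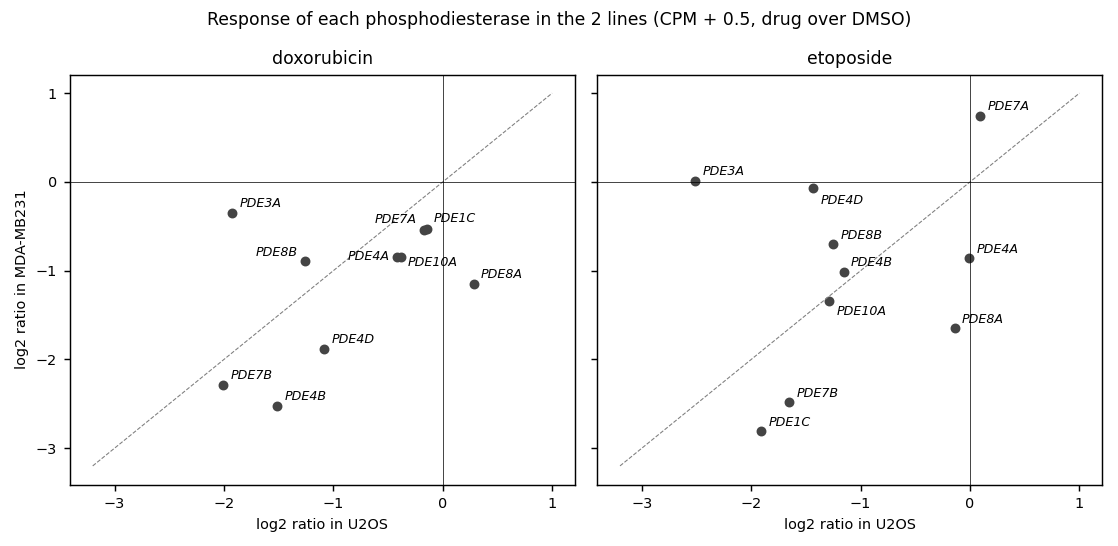
Log2 ratio of CPM + 0.5 over DMSO in U2OS (x axis) and MDA-MB231 (y axis) for doxorubicin and etoposide; each point is 1 gene and the dashed line marks equal ratios. PDE7B and PDE4B lie below -1 on both axes with both drugs, whereas PDE4D with etoposide is at -1.44 in U2OS and -0.07 in MDA-MB231.

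Most of these genes are long. Genomic spans (GENCODE 29, GRCh38) ran from 52.9 kb for PDE4A to 1553 kb for PDE4D, with PDE10A at 661 kb, PDE4B at 582 kb, PDE1C at 548 kb, PDE7B at 344 kb and PDE3A at 315 kb. Below these were PDE8B at 219 kb, PDE8A at 159 kb and PDE7A at 125 kb. The share of genes called lower differed by span among the 13849 genes that could be matched, rising with span for etoposide and MMS and not for doxorubicin. Of the 630 genes of 300 kb or more, which include 6 of the 10, 13.0% were called lower with doxorubicin, 19.1% with etoposide and 20.8% with MMS. Of the 2870 genes under 10 kb, 15.0%, 6.76% and 3.07% were lower with the same drugs in that order. With doxorubicin the share lower was highest, 24.8%, between 30 and 100 kb. Called higher with doxorubicin, etoposide and MMS were 7.14%, 3.18% and 0.635% of the genes of 300 kb or more, beside 31.5%, 8.12% and 5.02% of those under 10 kb, and paclitaxel called 0 in every span class. Of the 4972 genes at least as long as PDE4A, 22.5% were lower with doxorubicin, 12.5% with etoposide and 8.97% with MMS. The part of gene length in the responses of the 10 genes was not tested.

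**Figure D5:**
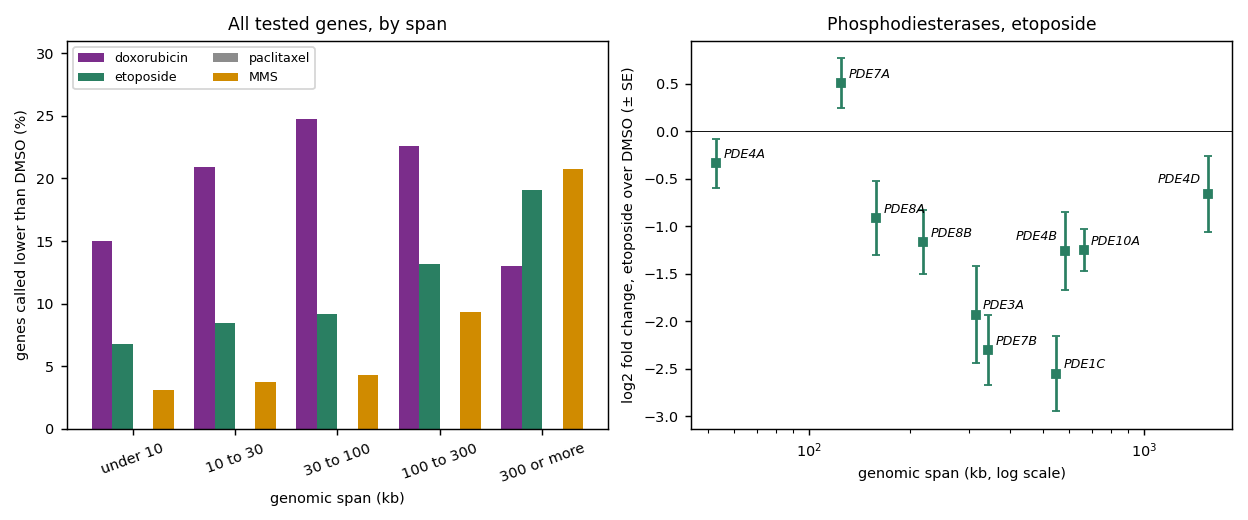
Left, share of all matched genes called lower than DMSO by genomic span (kb) and drug; right, etoposide log2 fold change (± 1 SE) of each phosphodiesterase against its span in kb on a log axis. With etoposide the share called lower is 6.76% under 10 kb and 19.1% at 300 kb or more; paclitaxel has no bar because no gene was called.

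The rest of the cyclic nucleotide pathway was described with 9 lists of 106 genes, of which 94 entered the fit. With doxorubicin 18 were called higher and 19 lower (19.15% and 20.2%). With etoposide 14 were higher and 5 lower (14.9% and 5.32%), with paclitaxel 0, and with MMS 4 higher and 2 lower (4.26% and 2.13%). Of all genes, 21.9% were higher and 20.6% lower with doxorubicin, 7.97% and 9.23% with etoposide, and 5.23% and 5.16% with MMS. The counts of each list below are read beside the same shares. Raised and lowered there mean called higher and called lower. No test of a list was made.

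Of the 11 other phosphodiesterase genes tested, doxorubicin raised 1, lowered 1 and left 9 uncalled (median log2 fold change -0.09), and etoposide called 0 (median 0.43). PDE5A, the cGMP-specific target of sildenafil, stood at 28.9 CPM with doxorubicin against 6.71 CPM with DMSO in U2OS, and at 8.23 CPM against 2.36 CPM in MDA-MB231 (log2 fold change 2.15 ± 0.40, adjusted p = 0.00296). PDE3B, the adipocyte and liver relative of PDE3A, stood at 5.08 CPM with doxorubicin against 13.2 CPM with DMSO in U2OS, and at 4.87 CPM against 10.98 CPM in MDA-MB231 (-1.17 ± 0.28, adjusted p = 0.00973). PDE5A was the 1 gene of the family called higher with any drug.

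On the synthesis side, doxorubicin raised 3 and lowered 0 of 9 adenylyl cyclases. ADCY3 stood at 164.9 CPM with doxorubicin against 79.2 CPM with DMSO in U2OS, and at 101.5 CPM against 68.2 CPM in MDA-MB231 (0.93 ± 0.23, adjusted p = 0.0126). ADCY5 rose by more (3.13 ± 0.49, adjusted p = 0.0014) but had 3 reads in MDA-MB231 DMSO replicate 1. Etoposide raised 2 and lowered 2. ADCY7 stood at 40.0 CPM with etoposide against 86.7 CPM with DMSO in U2OS, and at 12.1 CPM against 46.5 CPM in MDA-MB231 (-1.38 ± 0.27, adjusted p = 0.0137), and ADCY5 rose (2.06 ± 0.48, adjusted p = 0.0236). Of 6 guanylyl cyclase genes each of these drugs raised 1. GUCY1B3, the beta subunit of the nitric oxide receptor, rose with etoposide (1.30 ± 0.33, adjusted p = 0.0292), a call that 6 of 20 alternatives lost.

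Among 11 G protein and Gs-coupled receptor genes, ADORA2B, the low-affinity adenosine receptor, was lower with 3 drugs. It stood at 11.04, 8.22 and 8.74 CPM with doxorubicin, etoposide and MMS in U2OS, against 33.4 CPM with DMSO. In MDA-MB231 it stood at 29.8 and 28.4 CPM with doxorubicin and etoposide, against 114 CPM in DMSO replicate 1, and at 69.0 CPM with MMS, against 133.6 CPM in replicate 2. The log2 fold changes were -1.63 ± 0.25, -1.88 ± 0.25 and -1.501 ± 0.25, with adjusted p of 0.00123, 0.00543 and 0.0124 in that order. In all, doxorubicin raised 2 and lowered 3 genes of this list, etoposide lowered 1 and MMS lowered 1.

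Of 18 effector genes, doxorubicin raised 4 and lowered 2, and etoposide raised 2 and lowered 1. PRKX, a kinase of the protein kinase A family, stood at 5.42 CPM with doxorubicin against 20.9 CPM with DMSO in U2OS, and at 4.12 CPM against 20.7 CPM in MDA-MB231 (-2.04 ± 0.30, adjusted p = 0.00102). BVES, a popeye-domain protein, rose with doxorubicin (1.77 ± 0.52, adjusted p = 0.0229) on U2OS reads, with 2 reads in MDA-MB231 doxorubicin and 0 in MDA-MB231 DMSO replicate 1. Of the protein kinase A regulatory subunits, PRKAR1B fell with etoposide (-1.55 ± 0.24, adjusted p = 0.00787) and PRKAR2B rose (0.95 ± 0.27, adjusted p = 0.0429), a call lost in 12 of 20 alternatives. Of 14 anchoring proteins, which hold the kinase and phosphodiesterases in place, doxorubicin lowered 5 and raised 1. AKAP10 stood at 13.3 CPM with doxorubicin against 41.5 CPM with DMSO in U2OS, and at 8.84 CPM against 42.1 CPM in MDA-MB231 (-1.958 ± 0.24, adjusted p = 0.000591), and AKAP5 fell by 1.95 on the log2 scale (adjusted p = 0.00276). PDE4DIP, which binds PDE4D, was the 1 anchoring gene called with etoposide (0.88 ± 0.23, adjusted p = 0.0337), and 8 of 20 alternatives lost it.

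Of 8 CREB factors and coactivators, doxorubicin lowered 4 and raised 0, and etoposide and MMS called 0. CREB1 stood at 27.5 CPM with doxorubicin against 76.8 CPM with DMSO in U2OS, and at 17.5 CPM against 89.7 CPM in MDA-MB231 (-1.86 ± 0.24, adjusted p = 0.000707). Its relative ATF1 fell by 1.03 on the log2 scale (adjusted p = 0.00505). Of 16 CREB target genes, doxorubicin raised 5 and lowered 4, etoposide raised 7 and lowered 0, and MMS raised 4 and lowered 1. These genes also answer to other pathways. FOSB, an immediate early gene, stood at 206.2 CPM with doxorubicin against 0.973 CPM with DMSO in U2OS, and at 386.5 CPM against 1.38 CPM in MDA-MB231 (7.63 ± 0.47, adjusted p = 0.000117).

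FOSB rose also with etoposide (3.44 ± 0.44, adjusted p = 0.005) and MMS (3.02 ± 0.42, adjusted p = 0.00788), as did FOS, with 3.30 ± 0.39 and 3.61 ± 0.36. PPARGC1A, a coactivator of mitochondrial genes, stood at 0.635 CPM with doxorubicin against 5.02 CPM with DMSO in U2OS, and at 1.12 CPM against 7.003 CPM in MDA-MB231 (-2.88 ± 0.45, adjusted p = 0.00141). Of the efflux pumps that export cyclic nucleotides, ABCC5 rose with doxorubicin (0.86 ± 0.16, adjusted p = 0.00336) and etoposide (0.60 ± 0.16, adjusted p = 0.0373), where 10 of 20 alternatives lost the call (adjusted p up to 0.298). Apart from ABCC5, PRKAR2B, PDE4DIP and GUCY1B3, the etoposide calls named from these lists were lost in 1 to 5 of 20 alternatives. Of the doxorubicin calls named here, those of PDE3B and BVES were each lost in 4 of 19 alternatives and that of ADCY3 in 3 of 19. The others were lost in at most 1 of 19. With MMS, the calls of ADORA2B, FOSB and FOS were lost in 3, 2 and 2 of 20 alternatives in that order. ABCC4 stood at 18.0 CPM with etoposide against 39.7 CPM with DMSO in U2OS, and at 17.0 CPM against 51.4 CPM in MDA-MB231 (-1.21 ± 0.26, adjusted p = 0.0192).

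Finally, genes with a pattern like those of PDE4B, PDE7B and PDE8A, the last having the most reads of the set, were looked up by the Pearson correlation of their 8 log2 ratios (4 drugs in 2 lines) among 10601 genes. The 8 ratios share DMSO libraries, so r is a description with no p. They include the 2 MMS ratios, on which PDE4B and PDE7B were picked, so other genes low with MMS rank high for these. The genes named are the 4 highest of 10601, each over 8 points. Most like PDE4B were TM4SF1 (r = 0.97), SHROOM2 (0.96), PDZD2 (0.953) and CDCA2 (0.938). For PDE7B they were TENC1 (0.962), DEPDC1B (0.957), HEG1 (0.951) and NCAPD2 (0.95). For PDE8A they were GPR110 (0.964), KLHL22 (0.962), MPDZ (0.961) and B3GNT7 (0.956). GPR110 and B3GNT7 ran from 0.0 to 34.2 CPM and from 0.0512 to 34.4 CPM over the libraries, and with 0.5 CPM added, ratios between libraries near 0 stay near 0; the part of this in their r was not tested. No gene was on more than 1 of these lists.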

How the data were processed

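RNA-seq of total RNA was done by the authors in MDA-MB231 and U2OS cells (11 libraries). The authors deposited a table per library with whole-number counts of reads for each gene symbol, with 5 summary rows that stayed out of library sizes and tests (37.9% to 48.2% of tabulated reads, mostly reads aligned to several places). CASAVA 1.8.2, TopHat2 2.0.8b and HTSeq are named, with builds hg19 and mm9, per the submitters' processing notes. The sources used here give no strand setting, read length or RNA selection.

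The 10 genes, the 9 pathway lists and the markers were chosen with earlier results of these data known. In R 4.3.3, edgeR 4.0.16 (robust quasi-likelihood, TMM, filterByExpr; 15888 genes) fitted all 11 libraries with 1 term for each drug and a 3-level block (U2OS, and MDA-MB231 libraries without and with 8hr in the title). Libraries are paired by cell line, and with 1 library per line and drug no other check of it could be made. The fit had 4 residual degrees of freedom (3 for a line difference, which adds 1 term) and a common biological coefficient of variation of 0.213. Since each block and drug held 1 library, both rest on differences in drug response between the lines. A call is a Benjamini-Hochberg adjusted p under 0.05 over all genes. SE is the size of the fitted log2 value over √F. Within a line, log2 ratios used TMM-scaled CPM with 0.5 added, which pulls low genes toward 0, and exact Clopper-Pearson 95% intervals that cover counting error only.

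Named genes were all 10 phosphodiesterases, up to 2 called genes per list and drug with the largest change and at least 5 CPM in some library, and the 4 genes most like PDE4B, PDE7B and the gene with the most reads. Alternatives were DESeq2 1.42.0, limma-voom (limma 3.58.1), DESeq2 size factors, other filters, other blocks and each library left out. Leaving out the MDA-MB231 libraries with 8hr in the title, or both doxorubicin libraries, was added after seeing the data. On simulated counts (15656 genes) the drug contrasts recovered 26% to 37% of 2-fold and 79% to 82% of 4-fold changes. There 200 genes were changed per contrast. Of the genes with no change set, 20 were falsely called with doxorubicin, 18 with etoposide, 8 with paclitaxel and 26 with MMS. Gene lengths came from GENCODE 29 by symbol (13849 genes matched), promoter sequences from RefSeq, and no coordinates of the files were converted.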

Additional observations from a re-analysis of the deposited data

How the results depend on the processing

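The counts of the 10 genes called over both lines depended most on the block and on single libraries. The block gave 5, 5, 3 and 4 genes with doxorubicin, etoposide and MMS and for doxorubicin minus etoposide. With no replicate block for line and title form, 1 gene (PDE4B) was called with doxorubicin and 0 in each of the others. Genes of the pathway lists then numbered 12, 0 and 0 with doxorubicin, etoposide and MMS, beside 37, 19 and 6. No line difference was fitted without the block. The MMS counts of the 10 genes describe the contrast that picked them, and nothing is read from them. With MMS, 6 of the 10 lay past the threshold in DESeq2 and 5 with no filter on low counts, and the pathway lists gave 19 in DESeq2, 10 in limma-voom and 11 without both doxorubicin libraries. With etoposide, 3 of the 10 were called without both MDA-MB231 libraries with 8hr in the title. DESeq2 called 1 of the 10, PDE4D, for the line difference with etoposide. Read against the other MDA-MB231 DMSO library, 1 of the 10, PDE1C, was 2-fold lower with paclitaxel in MDA-MB231. The other settings gave counts within 1.5 times of those reported. Leaving out 1 library at a time gave 2 to 6 genes with doxorubicin, 0 to 5 with etoposide, 0 to 5 with MMS, 1 to 5 for doxorubicin minus etoposide, 5 to 8 for the level between lines and 0 for paclitaxel and each line difference. The pathway lists then gave 23 to 39, 1 to 24 and 0 to 13 genes with doxorubicin, etoposide and MMS. Over all genes the same fits called 4058 to 7057 with doxorubicin, 49 to 3709 with etoposide and 0 to 2537 with MMS. DESeq2 called 3825 and 2911 genes with etoposide and MMS, beside 2734 and 1651 with edgeR, and the cause was not tested.

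No called value changed sign under any setting, while 20 values that were not called did. Leaving out single libraries, log2 values with paclitaxel ran from -0.58 to 0.32 for PDE1C, -0.85 to 0.41 for PDE3A, -0.33 to 0.18 for PDE4A, -0.0058 to 0.79 for PDE4B, -0.11 to 0.094 for PDE4D, -0.10 to 0.19 for PDE7A, -0.54 to 0.42 for PDE7B, -0.43 to 0.68 for PDE8A, -0.20 to 0.28 for PDE8B and -0.0049 to 0.24 for PDE10A. With paclitaxel, no replicate block gave 0.32 for PDE3A, -0.022 for PDE4D and 0.011 for PDE7B, and a block for line alone gave 0.060 for PDE7B and -0.11 for PDE8B. PDE7B was also 0.030 in limma-voom and 0.054 without both libraries with 8hr in the title, and PDE4D was -0.0188 without both doxorubicin libraries. With doxorubicin PDE1C ran from -0.44 to 0.27, and with etoposide PDE4A ran from -0.78 to 0.038 and PDE4D from -1.53 to 0.023. Doxorubicin minus etoposide ran from -1.67 to 0.65 for PDE3A (-0.10 in DESeq2), -0.62 to 0.21 for PDE4A, -1.49 to 0.065 for PDE4D, -0.60 to 0.35 for PDE7B, -0.045 to 1.07 for PDE8A and -0.40 to 0.035 for PDE8B. The level of PDE8A in U2OS minus MDA-MB231 ran from -0.026 to 0.37 and was -0.053 without both doxorubicin libraries. Depth limited PDE3A in MDA-MB231 (3 to 10 reads) and PDE4B with MMS (5 and 12 reads).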
